A study of Mus musculus with 2 samples.

Results

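The clustered replication-dependent histone genes were taken as every gene whose symbol begins with Hist1h, Hist2h, Hist3h or Hist4h, which selected 67 of the 32285 genes of the deposited count matrices. The choice was made on the symbol alone and used no measured value. Of these 67 genes, 6 encode the linker histone H1, 18 H2A, 18 H2B, 12 H3 and 13 H4. The Hist1 cluster holds 54 of them on chromosome 13, the Hist2 cluster 10 on chromosome 3, and the 2 Hist3 genes and the single Hist4 gene lie on chromosomes 11 and 6.

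Counts came from 2 single-cell RNA-seq libraries of microdissected cerebellar lobules III-IV at postnatal day 1, made with 10X Genomics 3' chemistry from polyadenylated RNA. One library came from Cxcr4+/1013 mice (the mutant library) and 1 from Cxcr4+/+ mice (the control library), and both carry the strain label B6.129S2-Cxcr4tm1.1Bala. The 1013 allele is a germline change that truncates the cytoplasmic tail of the chemokine receptor CXCR4, and no Cre or tissue-specific promoter restricts it. The extraction text writes the mutant genotype as Cxcr4+/-, and the genotype label was followed here. The sources used here do not say how many animals went into a library. With 1 library per genotype no test between genotypes was possible, and the intervals below are exact 95% intervals that cover counting error only. UMIs (unique molecular identifiers, each standing for 1 captured RNA molecule) were added up within each cell class and scaled to 1000000 UMIs of that class, and such levels are given as CPM.

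Replication-dependent histone genes supply the proteins that package newly made DNA, so their RNA normally builds up while a cell copies its genome and is removed afterwards. H2A, H2B, H3 and H4 form the nucleosome core, and H1 binds the linker DNA between nucleosomes. Most of their mRNAs end in a short stem loop in place of a poly(A) tail, the stem loop is bound by the protein SLBP, and polyadenylated forms are known from some of these genes in cells that have left the cell cycle. In the newborn cerebellum, granule cell progenitors of the external granule layer divide in large numbers, whereas Purkinje cells have already left the cell cycle. A library primed on poly(A) therefore samples only a portion of histone mRNA, and levels of different members were not read as relative amounts of the proteins.

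The sequence that sets these mRNAs apart is shown first, because which members carry annotated sequence beyond it bears on how they can be counted. GENCODE M21 transcripts (GRCm38, the build also called mm10) held the histone 3' stem loop, searched on the transcript strand after the stop codon, in 44 of the 67 members, from 22 to 59 bases after the stop codon. In the last 200 bases of any transcript it was found in 25 of 67 members and in 5 of 55383 other genes (0.00903%). The 6 forms below are 16 bases long, with the 4-base loop in capitals, and are written as DNA.
H1, H2A, H2B and H3, 26 members, among them Hist1h1e, Hist3h2ba and Hist3h2a: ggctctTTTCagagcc
H4, 7 members, among them Hist1h4d: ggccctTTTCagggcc
H1, H2B and H3, 6 members: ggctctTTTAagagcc
H4, 2 members: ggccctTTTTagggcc
H4, another 2 members: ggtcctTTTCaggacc
H2A, 1 member, Hist2h2ac: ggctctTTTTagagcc
The H4 genes thus carried stems of their own, not shared with any of the other types. Of the 67 members, 23 had an annotated transcript that ran at least 100 bases past the stem loop, 21 ended nearer to it, 15 had a coding sequence only, and 8 had no match.

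The 250 bases before the annotated start are shown for the most abundant member, the H1 gene Hist1h1b, and for the 2 Hist3 genes, whose pattern across cells differed from that of the other members. Sequences and starts are from RefSeq on GRCm38.p6, each is written 5' to 3' on the strand of its gene, and capitals mark the CCAAT box, the TATA box motif TATAAA and the octamer motif ATTTGCAT or their reverse complements.
Hist1h1b (H1f5 in RefSeq), chr13:21780626-21780875, minus strand: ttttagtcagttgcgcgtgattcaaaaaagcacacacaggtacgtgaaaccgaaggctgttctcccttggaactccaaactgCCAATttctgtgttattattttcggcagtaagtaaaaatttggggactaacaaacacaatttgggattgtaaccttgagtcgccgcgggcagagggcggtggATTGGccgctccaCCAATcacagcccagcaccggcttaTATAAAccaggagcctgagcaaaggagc
Hist3h2ba (H2bu2 in RefSeq), chr11:58948661-58948910, plus strand: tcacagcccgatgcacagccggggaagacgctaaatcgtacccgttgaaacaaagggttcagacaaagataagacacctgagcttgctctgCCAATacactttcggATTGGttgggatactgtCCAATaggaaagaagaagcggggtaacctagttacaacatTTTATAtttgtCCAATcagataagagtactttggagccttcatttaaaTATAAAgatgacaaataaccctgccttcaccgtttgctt
Hist3h2a (H2aw in RefSeq), chr11:58954435-58954684, plus strand: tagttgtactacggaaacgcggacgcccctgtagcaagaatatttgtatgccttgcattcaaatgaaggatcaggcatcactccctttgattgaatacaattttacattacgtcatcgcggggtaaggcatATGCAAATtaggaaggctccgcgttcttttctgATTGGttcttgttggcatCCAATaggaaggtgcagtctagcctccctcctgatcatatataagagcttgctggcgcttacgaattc
Over the 60 members found in the RefSeq table, searched over 300 bases from 250 before to 50 after the start on both strands, CCAAT stood in 51, against 37.4% of all 32851 promoters, and TATAAA in 35 (58.3%, against 13.6%). The octamer stood in 13 (21.7%, against 1.74%), and all of these were H2A (7 of 16) or H2B (6 of 16) genes. CCAAT stood in all 6 H1, 16 H2A, 16 H2B and 10 H3 promoters and in 3 of 12 H4 promoters. The promoter of Hist3h2a held the octamer and CCAAT, and that of Hist3h2ba held CCAAT and TATAAA.

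Of 9551 mutant and 9586 control barcodes, 8194 and 8353 had at least 500 genes and at most 10% mitochondrial UMIs, and 7568 and 7712 remained after doublet removal, with medians of 13280 and 11905 UMIs. The libraries shared 25 barcode sequences. Cells were clustered without the histone genes and named by fixed marker lists, so that "-like" names rest on genes other than the members. Granule cell progenitor-like cells had 1543 and 1385 CPM summed over their 10 markers (Atoh1, Gli1, Ptch1 and others) in the mutant and control libraries, against 416 and 365 in granule neuron-like cells. They also had 1931 and 1689 CPM of the 12 granule neuron markers, against 6259 and 5567 in granule neuron-like cells, and the part of these transcripts in the results below was not tested. Purkinje cell-like cells had 24136 and 22720 of their 13 markers, against 980 and 810 in progenitor-like cells.

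In the retained cells the members gave 93243 UMIs in the mutant library (841 CPM) and 81804 in the control library (810 CPM). Over all barcodes that met the gene and mitochondrial limits the totals were 104756 in mutant and 90834 in control. A UMI was found for 65 members and at least 50 for 61. Hist1h2bq and Hist1h2ba, an H2B gene known from testis, had none, and Hist1h2ao, Hist1h1t, Hist1h2aa and Hist2h2aa2 had from 1 to 31 over both libraries. The 4 members with most UMIs held 60.0% of the mutant and 57.3% of the control histone UMIs. These were the H1 genes Hist1h1b (19612 UMIs mutant, 15993 control) and Hist1h1e (10276 and 9497), the H2B gene Hist3h2ba (14199 and 13184) and the H4 gene Hist1h4d (11835 and 8215). In GENCODE M21, Hist1h1b lies at chr13:21779883-21780625 (minus strand), Hist1h1e at chr13:23620629-23622558 (minus) and Hist1h4d at chr13:23581598-23582735 (plus). Hist1h1e overlaps the H2B gene Hist1h2be and Gm11398 on its own strand, so their UMIs may be confused. H1 contributed 36.1% of mutant and 35.5% of control histone UMIs, H2A 17.0% and 17.2%, H2B 22.9% and 25.7%, H3 4.67% and 5.23%, and H4 19.3% and 16.3%. For 27 members, more than 50% of the 90-base windows of their transcripts also occur in another gene, so reads of near-identical copies could be split or dropped by the counting and their single values are uncertain.

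Histone UMIs were concentrated in the cycling classes. The 65 members outside Hist3 together reached 1831 CPM in mutant and 1801 in control granule cell progenitor-like cells (intervals 1815 to 1848 and 1783 to 1819). GABAergic or glial progenitor-like cells came next with 1512 and 1472. Astroglia or Bergmann glia-like cells (580 and 551), the oligodendrocyte lineage (571 and 578) and ependymal-like cells (520 and 537) lay close together, with intervals that overlapped within each library except for astroglia and ependymal cells of the mutant library. Granule neuron-like cells had 209 and 189, the class of unipolar brush cells or rhombic lip 174 and 165, GABAergic interneuron-like cells 147 and 143, and glutamatergic nuclear neuron-like cells 132 and 124. Purkinje cell-like cells were lowest at 104 and 88.9, although they were the deepest class, with medians of 36334 and 34337 UMIs per cell. Every neuronal class thus lay under every glial and progenitor class in both libraries.

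**Figure D1:**
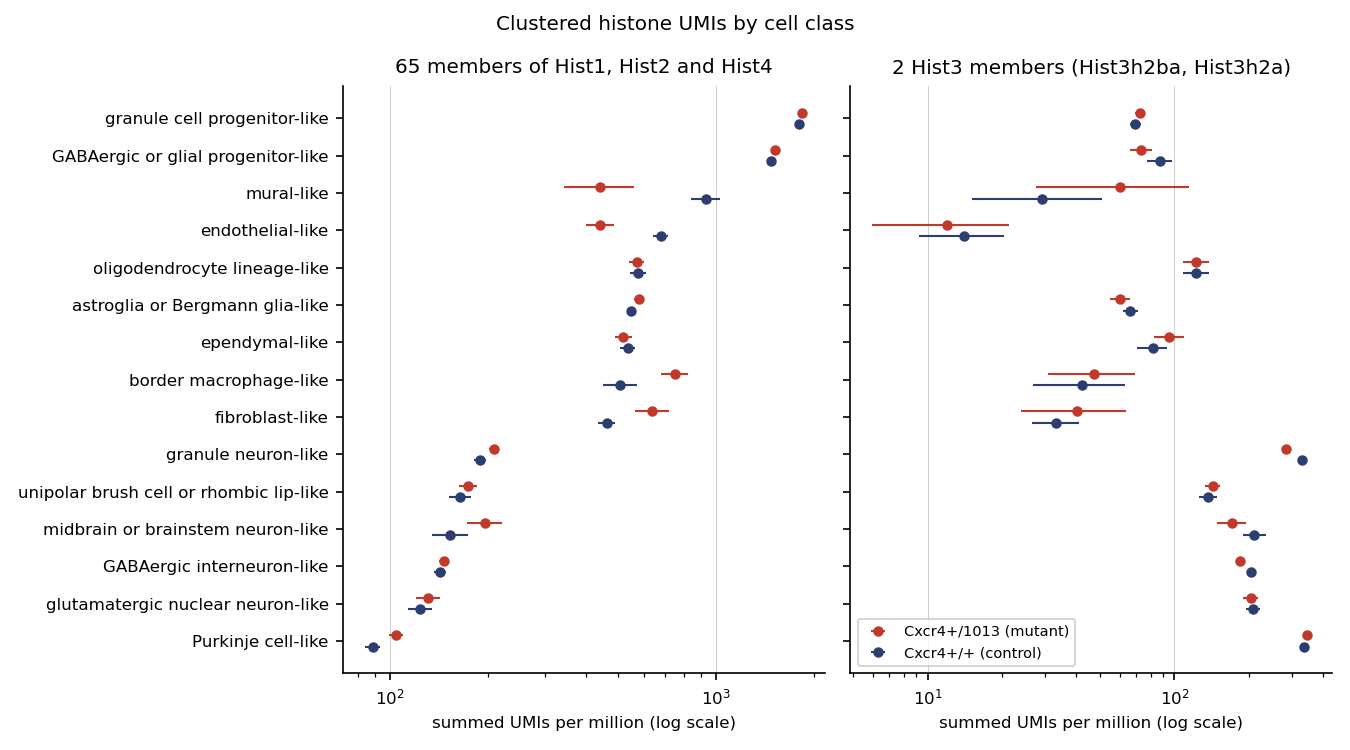
Summed CPM (log axis) by cell class for the 65 members of Hist1, Hist2 and Hist4 (left) and for the 2 Hist3 members (right), with red points for the Cxcr4+/1013 library, blue points for the Cxcr4+/+ library and bars for exact 95% Poisson intervals. The left panel runs between 1831 CPM in mutant granule cell progenitor-like cells and 88.9 in control Purkinje cell-like cells, and in the right panel Purkinje cell-like cells are at 345 and 336 and granule neuron-like cells at 283 and 329.

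The same order held gene by gene between granule cell progenitor-like and granule neuron-like cells, which belong to 1 lineage. With at least 50 UMIs over both classes together, 58 members could be compared. Of these, 56 were at least 2-fold higher in progenitor-like cells in both libraries (14.9% of all genes tested) and 2 at least 2-fold lower (17.2% of all genes tested). Only 16 members had 50 UMIs in granule neuron-like cells alone. Most of the 58 thus entered the comparison through their progenitor counts, so the count of 56 and the medians are a description. The median log2 ratio was 3.96 over the members and -0.06 over all genes. Hist1h1b had 559 CPM in mutant progenitors against 10.0 in mutant granule neurons, and 500 against 7.83 in the control library, ratios of 55.7 (48.1 to 64.9) and 63.8 (52.5 to 78.3). The H2A gene Hist1h2ae had 96.5 against 4.24 in the mutant library and 96.6 against 4.38 in the control library, 22.8-fold and 22.1-fold. The H3 gene Hist1h3c had 45.6 against 1.90 and 51.4 against 1.77, 24.1-fold and 29.1-fold. H1, H2A and H3 were thus each represented by a member more than 20-fold higher in progenitors, whereas the most abundant H4 gene, Hist1h4d, had 288 against 45.5 and 237 against 31.8, 6.32-fold and 7.45-fold. With both libraries pooled, the highest log2 ratio of a single member outside Hist3 was 6.30 for H2B and 4.04 for H4.

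Some members stood out by a shallow difference. Hist1h1e, a linker histone gene expressed in many tissues, had 187 CPM in progenitors against 72.2 in granule neurons in the mutant library and 194 against 76.2 in the control library, 2.59-fold and 2.55-fold. It was the member outside Hist3 with most UMIs in granule neuron-like cells. The H2B gene Hist1h2bc had 33.9 against 11.9 and 41.3 against 12.8, 2.86-fold and 3.22-fold, and Hist2h2be 5.10 against 1.95 and 6.33 against 1.84. By type, the median log2 ratio without Hist3 was 4.49 for H1, 4.49 for H2A, 4.12 for H2B, 4.23 for H3 and 2.85 for H4. Against Purkinje cell-like cells, 56 of 59 members were at least 2-fold higher in progenitors in both libraries (23.9% of all genes tested) and 2 lower (22.7%), and the remaining 1, Hist4h4, had 1.99 against 1.36 and 2.84 against 1.63.

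**Figure D2:**
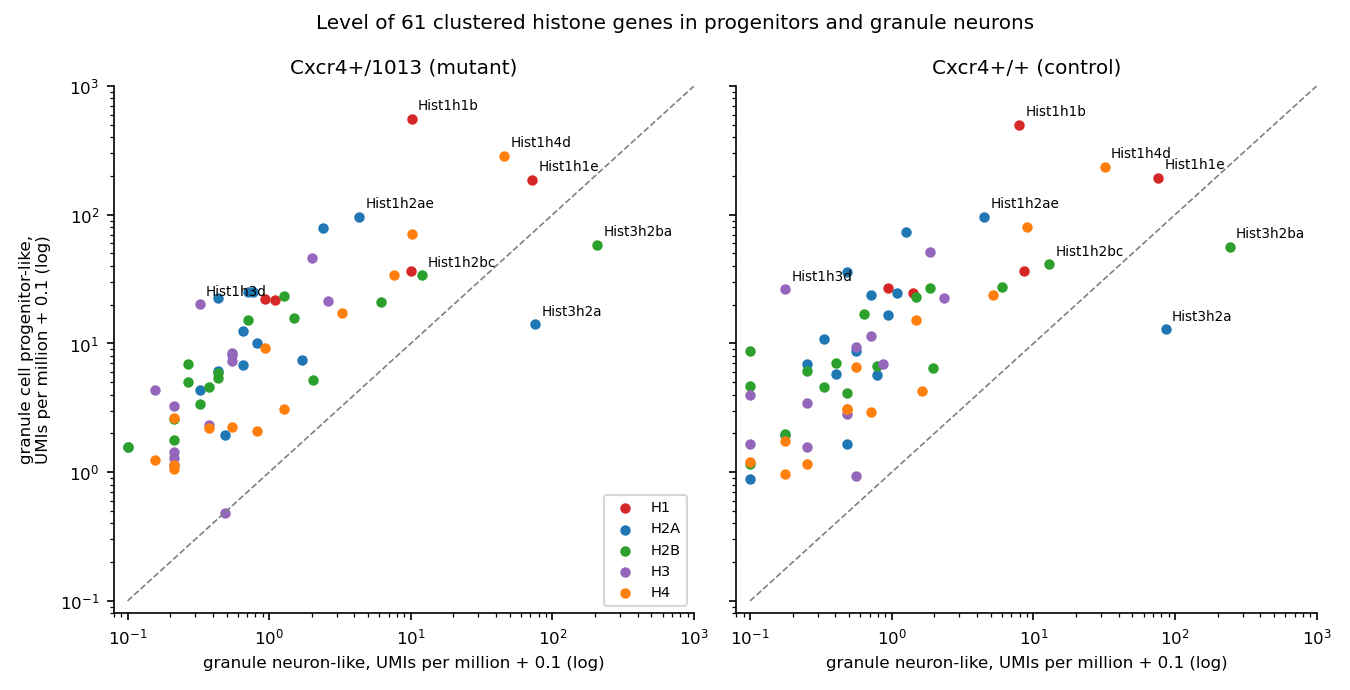
CPM plus 0.1 of the 61 members with at least 50 UMIs in granule cell progenitor-like cells (vertical, log) and granule neuron-like cells (horizontal, log), with 1 point per gene, colours for histone types and the dashed line at equal levels, in the mutant (left) and control (right) library. Hist3h2ba and Hist3h2a lie under the line in both panels, and Hist1h1b is farthest up at 559 and 500 in progenitors.

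The 2 Hist3 genes had the opposite distribution. Hist3h2ba encodes an H2B and spans chr11:58948920-58949533, and Hist3h2a encodes an H2A and spans chr11:58954685-58956830, both in 1 exon on the plus strand, 5152 bases apart. Hist3h2ba had 58.3 CPM in mutant progenitors against 207 in mutant granule neurons, and 56.5 against 244 in the control library, ratios of 0.281 (0.265 to 0.298) and 0.232 (0.217 to 0.248). Hist3h2a had 13.96 against 75.4 and 12.8 against 85.8, ratios of 0.185 and 0.149. Together they were highest in Purkinje cell-like cells, with 345 CPM in mutant and 336 in control, followed by granule neuron-like cells (283 and 329), and then by glutamatergic nuclear (204 and 208), GABAergic interneuron-like (184 and 205) and midbrain or brainstem neuron-like cells (171 and 211), whose order differed between the libraries. They had 72.2 and 69.3 in granule cell progenitor-like cells, 60.3 and 66.2 in astroglia and 11.96 and 13.99 in endothelial-like cells. Taken over all its cells, every neuronal class lay above every progenitor and glial class in both libraries. Among cells without an S or G2/M score (low-cycle, defined below), the order was not complete. There, over both libraries, oligodendrocyte lineage-like cells had 150, above the 140 of the class of unipolar brush cells or rhombic lip. The place of Purkinje cells in this order depended on the cell filter. With at least 1000 genes and at most 5% mitochondrial UMIs, only 41 mutant and 96 control cells of the Purkinje cell-like class remained, and they had 299 and 217 CPM, against 291 and 337 in the remaining granule neurons. With clusters rebuilt after that filter, a Purkinje cell-like class of 158 and 198 cells, which held the same 41 and 96 cells, had 151 and 141 CPM, under granule neurons (295 and 354), nuclear neurons (216 and 223) and interneurons (206 and 232) and above progenitors (72.2 and 69.2). The log2 ratio of progenitors over Purkinje cells was then -1.04 in place of -2.26.

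The pattern of Hist3h2ba was also visible cell by cell. After each cell was thinned to 4000 UMIs, Hist3h2ba was detected in 52.5% of mutant and 60.9% of control granule neuron-like cells and in 56.2% and 59.8% of Purkinje cell-like cells, against 21.5% and 18.6% of progenitor-like cells. Hist1h1b was detected in 45.5% and 45.1% of thinned progenitor-like cells, against 4.04% and 3.59% of granule neuron-like and 1.19% and 1.53% of Purkinje cell-like cells. Thinning left out 44 mutant and 50 control progenitors, 172 and 436 granule neurons and 8 and 47 Purkinje cells as too shallow. Without thinning, Hist1h1b was detected in 63.5% and 59.4% of progenitors and in 9.05% and 4.59% of Purkinje cells. The thinned shares in Purkinje cells, which no longer divide, are taken as the background level for Hist1h1b, an assumption that was not tested. The part of free RNA in the other shares was not tested either.

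Hist3h2a overlaps Trim17 on the same strand and Gm44313 on the other, so part of its UMIs could belong to another gene. Trim17 itself had 13.6 CPM in mutant and 13.2 in control Purkinje cell-like cells, 6.52 and 4.45 in granule neurons and 1.27 and 1.47 in progenitors, all far under Hist3h2a. Hist3h2ba overlaps no annotated gene on either strand, and 8.57% of its windows occur elsewhere.

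Among members outside Hist3, those annotated past their stem loop made up a larger portion of the histone UMIs in granule neuron-like and Purkinje cell-like cells than in progenitor-like cells, by an amount that depended on a few abundant genes. They gave 76.5% of mutant and 77.5% of control UMIs in granule neuron-like cells, 70.6% and 72.6% in Purkinje cell-like and 78.1% and 79.3% in the class of unipolar brush cells or rhombic lip. In granule cell progenitor-like cells the shares were 45.0% and 45.2%, in GABAergic or glial progenitor-like cells 41.8% and 40.9%, and in oligodendrocyte lineage-like cells 46.1% and 45.5%. Without the 2 largest of these genes, Hist1h1e and Hist1h4d, the shares were 46.0% and 47.6% in granule neurons and 46.9% and 51.3% in Purkinje cells, against 25.7% and 28.0% in progenitors. On that basis ependymal-like cells, at 41.0% and 36.3%, came close to GABAergic interneurons, at 41.5% and 42.2%. Without Hist1h1b as well, which is not among the members past the stem loop, the shares were 51.7% and 52.7% in granule neurons and 49.3% and 53.0% in Purkinje cells, against 43.8% and 44.1% in progenitors, a comparison added after the values were seen. Gene by gene, the median log2 ratio of progenitors over granule neurons was 2.96 for the 19 tested members past the stem loop, 4.13 for the 17 near it, 4.23 for the 13 with coding sequence only and 4.20 for the 7 with no match, although single genes ranged from 1.36 to 7.14 in the first group. These are shares of polyadenylated or internally primed UMIs, and whether the 3' ends differ between cells was not measured.

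Ependymal-like cells had a composition of their own. H2B made up 42.5% of their mutant and 50.2% of their control histone UMIs outside Hist3, against 8.19% and 10.3% in granule cell progenitor-like cells. Hist1h2bc, whose annotated transcript has 2 exons, had 174 and 227 CPM there, above each of the other classes named here, against 73.2 and 52.3 in astroglia and 33.9 and 41.3 in granule cell progenitors. The linker histone gene Hist1h1c had 84.4 and 80.3 in ependymal-like cells, against 75.9 and 45.2 in fibroblast-like cells and 36.5 and 36.2 in granule cell progenitors. Median depth in ependymal-like cells differed between the libraries, at 13981 and 5530 UMIs per cell.

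Cells were assigned to S, G2/M or low-cycle states from 39 S and 51 G2/M genes that include no histone. In granule cell progenitor-like cells the members together had 1318 and 1255 CPM in the S state (669 mutant and 635 control cells), 2365 and 2413 in G2/M (740 and 651 cells) and 334 and 295 in the low-cycle state (23 and 27 cells). S over low-cycle was 3.95 (3.18 to 4.96) and 4.25 (3.46 to 5.28), and G2/M over low-cycle 7.08 and 8.18. The G2/M state thus held more histone UMIs than the S state in both libraries. The 2 Hist3 genes had 58.3 and 60.3 in S, 82.4 and 76.0 in G2/M and 85.5 and 90.8 in low-cycle progenitors, without such an increase over low-cycle cells.

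Classes differed in the size of the steps between states, and some also in the order of the states. GABAergic or glial progenitor-like cells had 1677 and 1666 in S, 1834 and 1768 in G2/M and 443 and 490 in low-cycle cells, so that S and G2/M were nearly level. Astroglia had 856 and 721 in S, 1428 and 1107 in G2/M and 398 and 373 in low-cycle cells. Granule neuron-like cells with an S score had 316 and 323, fewer than the 497 and 524 of low-cycle granule neurons. There the Hist3 genes had 108 and 97.5 in S against 291 and 342 in low-cycle cells, while the other members had 208 and 225 in S against 206 and 182 in low-cycle cells. Over both libraries together, these other members had 373 in G2/M, 215 in S and 196 in low-cycle granule neurons. In GABAergic interneuron-like cells they had 334 in G2/M (45 cells), 385 in S and 132 in low-cycle cells. Ependymal-like cells had 423 in G2/M, 839 in S (42 cells) and 606 in low-cycle cells.

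A finer division of the progenitor-like cells, into 4 bins of equal size per list, placed the histone maximum in cells with UMIs of both lists. Cells were ranked by the share of their UMIs in the S list and, separately, in the G2/M list, with bin 1 lowest and bin 4 highest. In the lowest G2/M bin the 65 members outside Hist3 stayed between 230 and 300 CPM in the mutant and between 199 and 284 in the control library at every S bin, 247 and 275 in the highest. The highest level, 4039 and 4256, was reached in cells of S bin 3 and G2/M bin 4, followed by S bin 3 with G2/M bin 3 (3827 and 3397) and S bin 4 with G2/M bin 3 (3617 and 3353). Cells with the lowest S share had 1150 and 1009 in the highest G2/M bin. Histone UMIs were therefore low in cells with many S list UMIs and few G2/M list UMIs, and high where both lists were well represented. Hist3 ranged from 49.1 to 99.9 in the mutant and from 50.02 to 100.5 in the control library across the bins. By G2/M bin alone, Hist3 had 59.9 and 65.7 in bin 1, 57.6 and 55.3 in bin 2, 68.2 and 63.3 in bin 3 and 94.5 and 87.5 in bin 4.

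**Figure D3:**
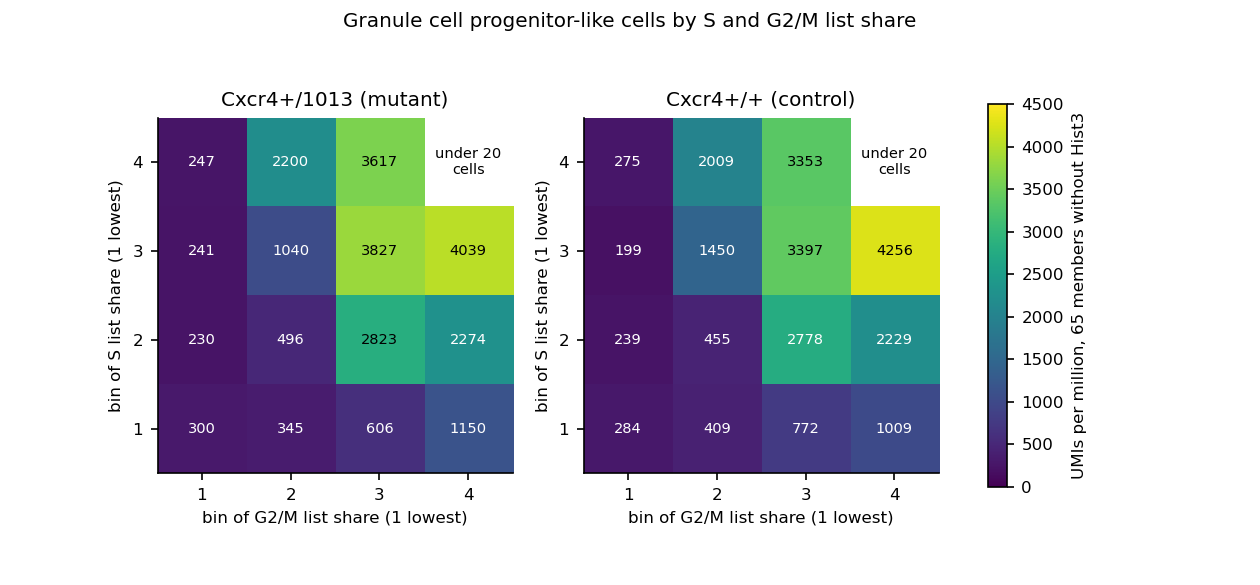
Summed CPM of the 65 members outside Hist3 in granule cell progenitor-like cells, by bin of the S list share (vertical) and of the G2/M list share (horizontal), in the mutant (left) and control (right) library, with the value printed in each bin and bins under 20 cells left empty. Both libraries have the highest value, 4039 and 4256, at S bin 3 and G2/M bin 4, and values from 199 to 300 along the lowest G2/M bin.

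Where state was set by the upper tertiles of the list shares in place of the scores, the log2 ratio of G2/M over S was 0.17 in the mutant and 0.34 in the control library in place of 0.84 and 0.94, and that of S over low-cycle 0.84 and 0.65 in place of 1.98 and 2.09. The direction was kept, and the cause of the smaller size was not tested. In all, 71 mutant (4.96%) and 98 control (7.46%) progenitor-like cells had a score within 0.05 of a state boundary.

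Gene by gene, 35 of 58 members were at least 1.5-fold higher in G2/M than in S progenitors in both libraries (4.08% of all genes tested) and 0 were lower (5.72%). The count differed between types, with 13 of 14 H2A and 8 of 11 H3 genes, against 2 of 5 H1, 8 of 16 H2B and 4 of 12 H4 genes. The H2A count included Hist3h2a, 2.63-fold and 1.66-fold higher, and was 12 of 13 without it. Hist1h4d had 398 CPM in G2/M against 145 in S in the mutant library and 341 against 115 in the control library, 2.76-fold (2.61 to 2.91) and 2.95-fold (2.76 to 3.16). Hist1h3c was 2.69-fold and 2.76-fold higher, Hist2h2ac, an H2A gene, 2.36-fold and 3.14-fold, and Hist1h1b 1.62-fold and 1.78-fold. Other members were level between the states: the H3 gene Hist1h3a had 7.22 in G2/M against 7.27 in S in mutant and 9.38 against 9.54 in control cells, and Hist1h2bc had 34.0 against 33.8 and 42.4 against 40.1. Hist1h4i, the second H4 gene by UMIs, was 1.35-fold higher in both libraries, with intervals of 1.23 to 1.49 and 1.22 to 1.49 that lie under those of Hist1h4d.

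**Figure D4:**
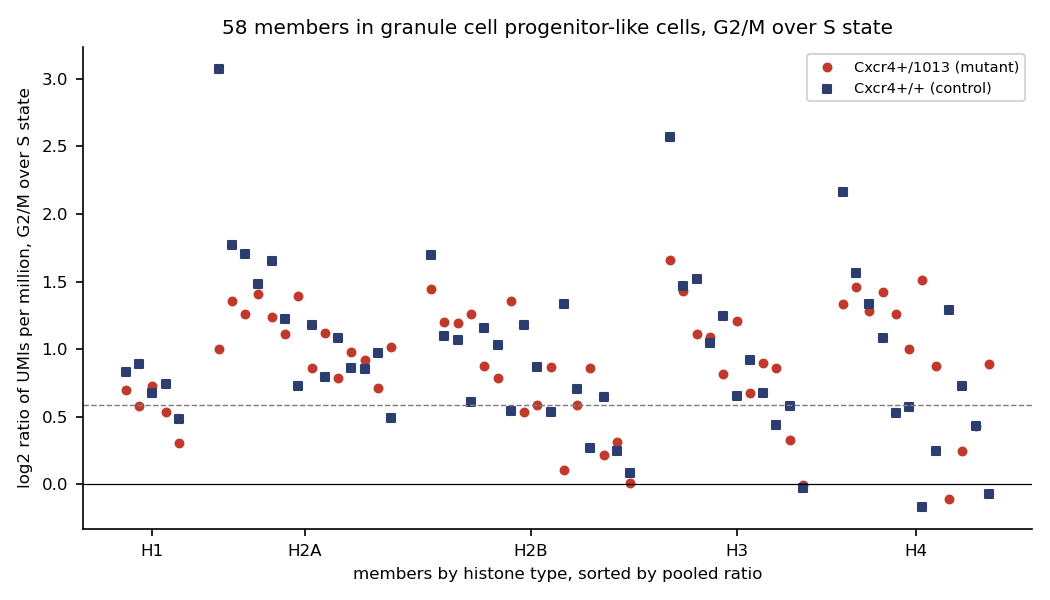
Log2 ratio of CPM in G2/M over S granule cell progenitor-like cells for the 58 members with at least 50 UMIs, grouped by histone type and sorted by the ratio over both libraries, with circles for the mutant and squares for the control library and a dashed line at 1.5-fold. All 14 H2A genes lie above 0 in both libraries, and 13 of them above the dashed line in both.

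Single genes could be compared between S and low-cycle progenitors only roughly, because low-cycle progenitors were 23 and 27 cells. Of 43 members, 8 were at least 2-fold higher in S in both libraries (4.42% of all genes tested) and 0 lower (3.83%). A gene could be called lower only with a UMI in the low-cycle cells of each library. Most members had none in at least 1 library, so the 0 was largely fixed in advance. The floor of 3 counts also limited calls as higher. Hist2h2ac was not called, with 157 mutant and 110 control UMIs in S and 0 in low-cycle cells. Hist1h1b had 416 CPM in S against 28.5 in low-cycle cells in the mutant library and 355 against 9.73 in the control library, 14.6-fold and 36.4-fold. The next by ratio, Hist1h1a, Hist1h1d, Hist1h2ap and Hist1h2ae, had from 0 to 3 UMIs in the low-cycle cells of either library. At the other end, Hist1h3b, Hist1h2bf, Hist2h4 and Hist1h2bp had 0 UMIs in the low-cycle cells of both libraries and at most 40 in S, so no ratio is given. Hist3h2a had 7.17 against 20.4 and 9.43 against 9.73. In G2/M against low-cycle progenitors, 16 of 53 members were at least 2-fold higher in both libraries (4.9% of all genes tested) and 0 lower (5.56%), with Hist1h1b at 674 against 28.5 and 630 against 9.73. Missing UMIs in the low-cycle cells limited these counts in the same way.

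Genes that act on histone mRNA or protein were compared from lists chosen for their function. Of 18 tested genes of histone transcription and mRNA 3' end processing, 7 were at least 2-fold higher in progenitors than in granule neurons in both libraries (14.9% of all genes tested) and 0 lower (17.2%). Slbp, which encodes the stem loop binding protein, had 211 CPM against 51.7 in the mutant library and 233 against 56.6 in the control library. Casp8ap2, Eri1, Srrt, E2f1, Cdk2 and Ccne1 were the others. Between states, 4 of these 18 were at least 1.5-fold lower in G2/M than in S (5.72% of all genes tested) and 0 higher (4.08%). Slbp had 164 in G2/M against 277 in S and 185 against 297, and Casp8ap2, Cdk2 and Ccne1 were lower in G2/M likewise. This direction is the reverse of the one seen for the histone genes themselves.

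Histone chaperones, which carry histones to or from DNA, divided between the states. Of 25, 16 were at least 2-fold higher in progenitors than in granule neurons (14.9% of all genes tested) and 0 lower (17.2%), with Nasp at 1086 against 196 and 1040 against 187. In G2/M, 4 were lower than in S (5.72% of all genes tested): the subunits of chromatin assembly factor 1 Chaf1a and Chaf1b (29.0 against 102 and 32.7 against 103 for Chaf1b), Hat1 and Tonsl. Hjurp, which loads the centromeric histone CENP-A, and Anp32e, which acts on H2A.Z, were 1.56-fold and 1.60-fold, and 1.58-fold and 1.54-fold, higher (4.08% of all genes tested). Of 11 replication-independent histone genes, 6 were at least 2-fold higher in progenitors, against 14.9% of all genes tested (Cenpa, H2afx, H2afz, H2afv, H2afy and H1fx). In G2/M, H2afx had 514 against 145 and 471 against 148, and Cenpa, H1fx and H1f0 were higher as well, against 4.08% of all genes tested.

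Over 36 pools, each a class in 1 state with both libraries together, the genes outside the family whose log2 level (with 10 CPM added) followed that of the summed members most closely included Ncapg (Pearson r = 0.92), Kif11 (0.91), Nuf2, Spag5, Spc24, Sgo1, Melk, Cdca2 and Traip (0.87). Kif11, Nuf2 and Cdca2 were also used to define the G2/M state, and pools share cell classes and libraries, so these values are a description. For the summed Hist3 genes, a comparison added after their pattern was seen, the closest included Ralgps1 (0.90), Dmxl2, Gdap1l1, Unc79, Rtn1, Snhg14, Stmn3, Mien1 and Dner (0.89). Among members with at least 500 UMIs, those least like the sum of all members were Hist3h2a (-0.36), Hist3h2ba (-0.12), Hist1h2bc (0.27), Hist2h2be (0.40) and Hist1h1c (0.51), and Hist1h2af (0.91) was closest. Each member is itself part of that sum, so abundant members were compared partly with themselves.

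Between genotypes, the summed members differed little. The ratio of mutant over control was 1.018 (1.0045 to 1.031) in granule cell progenitor-like cells, with 1904 against 1870 CPM. It was 0.947 (0.918 to 0.978) in granule neurons, 1.06 (1.02 to 1.09) in Purkinje cells, 1.04 (0.9995 to 1.08) in astroglia, 0.954 (0.920 to 0.988) in GABAergic interneurons and 1.02 (0.981 to 1.05) in GABAergic or glial progenitors. In granule cell progenitors the direction was not stable: the log2 ratio was 0.03 as reported, -0.03 with TMM scaling, -0.06 in female cells and 0.16 in male cells. It turned in the other 5 classes too. Granule neurons had 0.14 and GABAergic interneurons 0.044 without the Hist3 genes. In female cells astroglia had -0.18 and GABAergic or glial progenitors -0.11. Purkinje cells had -0.0098 under the stricter cell filter with classes rebuilt. That class of 158 mutant and 198 control cells held only 41 and 96 of the reported ones. S and G2/M states took 46.7% and 51.7% of mutant progenitors, against 48.4% and 49.6% of control progenitors.

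The histone types differed in their ratios, and the H4 ratio in progenitors lay near 1 without its most abundant gene. In granule cell progenitors H4 genes had 434 CPM in the mutant library against 379 in the control library, a ratio of 1.14 (1.11 to 1.18), and H2B genes 208 against 242, 0.860 (0.828 to 0.894). H3 genes stood at 123 against 142, 0.868 (0.826 to 0.912). In granule neurons the ratio was 1.38 (1.26 to 1.52) for H4 and 0.861 (0.823 to 0.901) for H2B, and in Purkinje cells 1.28 (1.11 to 1.47) for H4 and 0.998 (0.954 to 1.04) for H2B. H4 was above 1 in all 3 classes with either scaling and in each sex, from 1.10 to 1.54. Without Hist1h4d, the other 12 H4 genes had a ratio of 1.02 (0.975 to 1.07) in progenitors, 1.29 (1.10 to 1.52) in granule neurons and 1.098 (0.906 to 1.33) in Purkinje cells, so that only the interval of granule neurons lay above 1. The ratio for H2B was under 1 in progenitors and granule neurons with either scaling and in each sex, from 0.789 to 0.917. In granule neurons most H2B UMIs came from Hist3h2ba, and no H2B ratio without it was computed. Outside Hist3, H2B made up 11.9% of 3746 mutant and 13.8% of 2468 control histone UMIs there. In progenitors Hist3h2ba had 58.3 against 56.5 CPM, so the lower H2B level there lay in other members. H1 in progenitors, at 1.06 (1.04 to 1.08), was 1.02 with TMM scaling and 0.977 in female cells. H2A, at 0.959 (0.929 to 0.990), was 1.04 in male cells.

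Among the 4 H4 genes with most UMIs, Hist1h4d, Hist1h4h and Hist1h4c had ratios over 1 in all 3 classes. Hist1h4d had 288 CPM in mutant and 237 in control progenitors (ratio 1.22, interval 1.17 to 1.26), 45.5 and 31.8 in granule neurons (1.43, 1.27 to 1.62) and 15.7 and 10.3 in Purkinje cells (1.53, 1.24 to 1.88). Hist1h4h had 33.7 and 23.8, 7.53 and 5.07, and 4.14 and 1.89 in the same 3 classes, ratios of 1.42, 1.49 and 2.19. Hist1h4i went the other way in progenitors, with 71.3 in mutant and 79.9 in control cells, and in Purkinje cells, with 5.36 and 5.87. Hist1h4c had only 33 mutant and 28 control UMIs in Purkinje cells. Hist3h2ba, the largest H2B gene, had 207 in mutant and 244 in control granule neurons (0.852, 0.812 to 0.893), 0.789 in female and 0.866 in male cells, while its ratio was 0.990 in Purkinje cells.

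Few members passed 1.5-fold between genotypes. Over all retained cells 4 of 61 were higher (2.21% of all genes tested), namely Hist1h4h (1.503, 1.39 to 1.63), Hist1h4a, Hist1h4n and Hist1h2ad, and 2 lower (7.4%), Hist1h2af (0.666, 0.608 to 0.730) and Hist1h2bk. Of 58 in granule cell progenitors, 0 were higher (3.24% of all genes tested) and 3 lower (1.2%). These were Hist1h2af with 586 mutant and 774 control UMIs (0.633, 0.567 to 0.705), Hist1h2an (0.621, 0.481 to 0.8005) and Hist1h2bk (0.624, 0.446 to 0.871). Within the S state 1 of 43 was higher (3.89%), Hist1h3f, and 4 lower (1.19%), Hist1h2bb, Hist1h2af, Hist1h2bp and Hist1h2an. Within G2/M 1 of 53 was higher (3.15%), Hist1h4a, and 7 lower (1.21%), Hist1h2af, Hist2h2bb, Hist1h2bk, Hist1h3i, Hist1h2an, Hist1h2bg and Hist2h4. The 3 genes called over all progenitors belong to the members whose sequence is mostly shared with other genes. Hist1h2af was under 1 in both sexes (0.604 female, 0.665 male), and under 1 in astroglia with 25 mutant and 118 control UMIs (0.345, 0.215 to 0.535) and in GABAergic or glial progenitors (0.656, 0.509 to 0.844).

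In granule neurons 2 of 16 members were higher (2.4% of all genes tested) and 0 lower (2.42%): Hist1h4c with 57 mutant and 18 control UMIs (2.3, 1.33 to 4.15) and Hist1h2ap with 41 and 15 (1.98, 1.08 to 3.86). In Purkinje cells 4 of 15 were higher (2.19%) and 0 lower (3.21%). These were Hist1h4h with 61 and 29 UMIs (2.19, 1.38 to 3.53), Hist1h4d, Hist1h1c with 107 and 66 (1.68, 1.23 to 2.33) and Hist1h1b with 42 and 24 (1.82, 1.08 to 3.14). At equal depth Hist1h1b was detected in 5 mutant (1.19%) and 7 control (1.53%) Purkinje cells, the share taken above as background. Without thinning it was detected in 9.05% and 4.59%. The thinned counts are too few to show or exclude a difference, so none is read from them. Hist1h1c was 0.920 in female and 2.46 in male Purkinje cells. In astroglia 3 of 27 were higher (3.36%), Hist1h4c (1.63), Hist2h2be (1.53) and Hist4h4 (1.63), and 2 lower (2.96%), Hist1h2af and Hist1h2bm (0.636). The intervals of Hist2h2be, Hist4h4 and Hist1h2bm include 1. GABAergic or glial progenitors had 2 of 27 higher (4.22%), Hist1h4a with 48 and 12 UMIs (2.73, 1.43 to 5.64) and Hist1h4h (1.5, 1.15 to 1.96), and 1 lower (1.64%), Hist1h2af. GABAergic interneurons had 0 of 15 in either direction (2.26% higher and 1.74% lower among all genes tested). In the smaller classes, glutamatergic nuclear neurons had 1 of 7 higher (4.01%), Hist1h4h, and 1 lower (4.38%), Hist1h1b. Of 12 members in the oligodendrocyte lineage, 1 was higher (3.88%), Hist1h4h, and 1 lower (2.48%), Hist1h2be. Ependymal-like cells had 1 of 9 higher (4.81%), Hist1h4d, and 0 lower (3.03%), and unipolar brush cells or rhombic lip 1 of 8 higher (2.44%), Hist1h1b with an interval that includes 1, and 0 lower (3.08%). Midbrain or brainstem neurons had 0 of 4 in either direction (4.27% and 3.55%). With counts this low outside the progenitors, each of these rests on few molecules from 1 library per genotype.

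**Figure D5:**
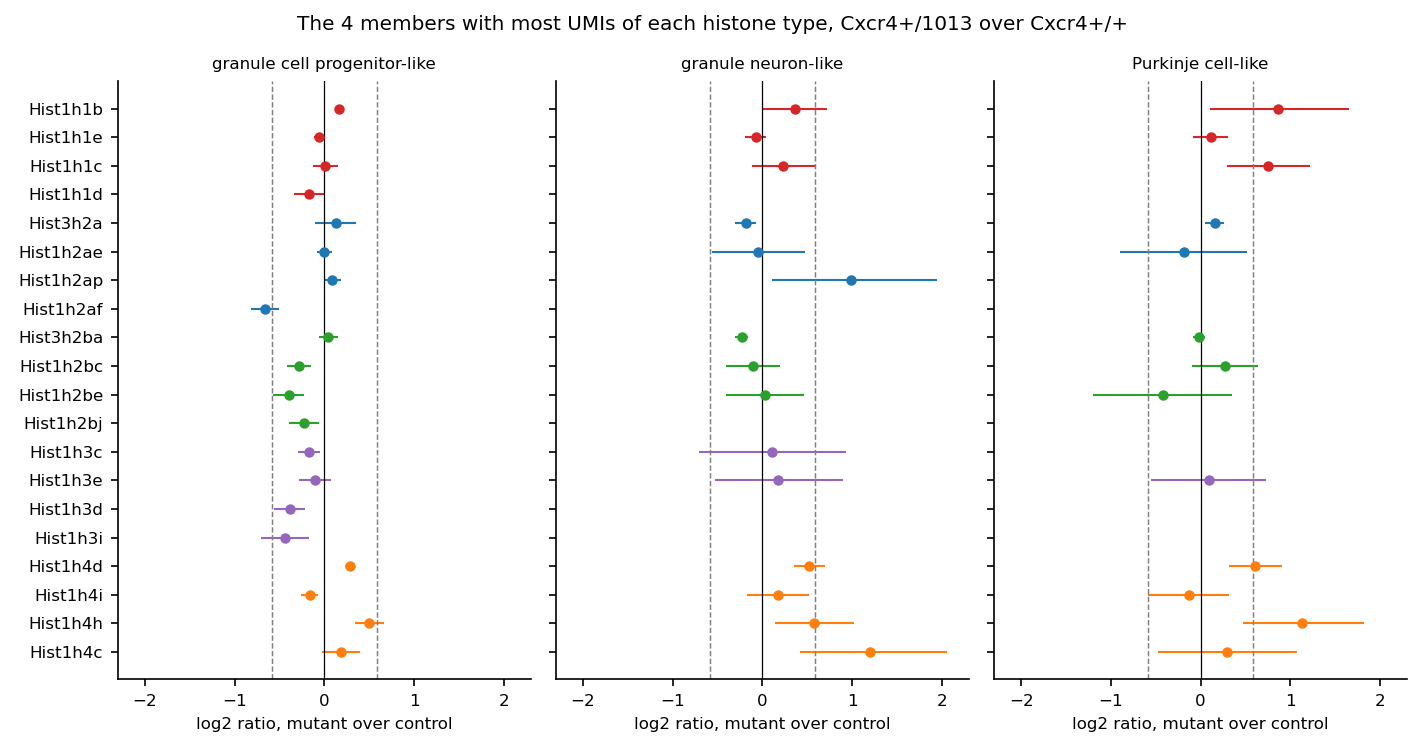
Log2 ratio of mutant over control CPM for the 4 members with most UMIs of each histone type in granule cell progenitor-like, granule neuron-like and Purkinje cell-like cells, with exact 95% intervals, colours for histone types, the solid line at equal levels, dashed lines at 1.5-fold and blank rows where a gene had under 50 UMIs. The H4 genes Hist1h4d, Hist1h4h and Hist1h4c (orange) lie right of 0 in all 3 panels, and Hist1h2af lies left of the dashed line in progenitors at 0.633-fold.

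Among the genes of the functional lists, H1fx, E2f1 and Ubn1 are given because they passed 1.5-fold in granule cell progenitors. The lists hold 19 genes of histone transcription and mRNA 3' end processing, 25 chaperones and 11 replication-independent histones. Over all genes tested, 3.24% were higher in mutant progenitors, and no result is read for the lists as sets. H1fx, a replication-independent linker histone gene, had 179 CPM in mutant and 68.9 in control granule cell progenitors (2.60, 2.45 to 2.76). Its ratio was 2.35 in granule neurons, 3.26 in Purkinje cells and 2.03 in astroglia. E2f1, an activator of S phase genes, had 112 and 58.3 in progenitors (1.92, 1.79 to 2.05) and 29.1 and 14.6 in granule neurons (1.995, 1.69 to 2.37). Ubn1, part of the chaperone complex for replication-independent H3, had 86.2 and 53.4 in progenitors (1.61, 1.503 to 1.73). Slbp and Nasp did not pass 1.5-fold in any of the 6 main classes.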

How the data were processed

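The deposited matrices hold UMI counts per gene and barcode, made by the authors with Cell Ranger 7.2.0, per the file headers, on mm10, per the submitters' processing notes. The annotation release and the use of intronic reads are not given in the sources used here. Barcodes under 500 genes or over 10% mitochondrial UMIs were left out, and the highest Scrublet scores (0.8% of barcodes per 1000) were removed. Cells were clustered in scanpy 1.11.5 without the histone genes (2000 variable genes, 30 principal components, 15 neighbours, Leiden resolution 1). A cluster was named where at least 3 markers of a type were present in 10% of its cells and 2-fold enriched. Cell cycle state came from scanpy scores of S and G2/M lists without histone genes.

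Counts were summed by library, class and state and scaled to CPM. Exact Poisson, conditional binomial and Clopper-Pearson intervals cover counting error only, and a count of 0 was given a floor of 3 counts. The 50 UMIs needed for a call were counted over both sides of a contrast together. Calls also needed 1.5-fold (genotype, and G2/M over S in both libraries) or 2-fold in both libraries (other contrasts). There is 1 library per genotype, so no p-value is given. Members and lists were chosen with earlier results of these data known. Genes were named as the 4 with most UMIs per histone type, up to 4 called in each direction in each main class, the 5 highest and 5 lowest S over low-cycle ratios, list genes at 1.5-fold, and the 10 genes most like the summed members. Some genes that this rule names are not reported here. Others, among them Hist2h2be, Hist4h4, Hist1h3a and Hist2h2ac and the called genes of the smaller classes, were chosen after their values were seen. Alternative scalings used edgeR 4.0.16 (TMM) and DESeq2 1.42.0 size factors. Cells were called female (Xist and no Y-linked UMI) or male (a Y-linked UMI and no Xist) for within-sex values. The rule for calling genes and its ratio intervals were tested on simulated mutant and control counts of granule cell progenitors.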

Additional observations from a re-analysis of the deposited data

Results flagged for a closer look

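Hist1h1b moved in opposite directions in a pair of neuronal classes. Its mutant over control ratio was 1.82 (1.08 to 3.14) in Purkinje cell-like cells, with 42 mutant and 24 control UMIs, and 0.521 (0.302 to 0.878) in glutamatergic nuclear neuron-like cells, with 23 mutant and 46 control UMIs. The difference between the classes was not tested. With cells thinned to 4000 UMIs, Hist1h1b was detected in 1.19% of mutant and 1.53% of control Purkinje cell-like cells, a share taken as its background level. Without thinning it was detected in 9.05% and 4.59%. The thinned counts of 5 and 7 cells are too few to show or exclude a difference, so none is read from them. In the nuclear neurons 16 of the control UMIs came from 1 cell with an S score, and without that cell the counts were 23 and 30 and the ratio 0.792 (0.440 to 1.41).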

How the results depend on the processing

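Of the alternative values, 96 stayed within the counting interval or 1.5 times of the reported ones and 58 moved. Summed genotype ratios near 1 changed sign under several settings, in all 6 classes. The contrasts of progenitors over granule neurons and over Purkinje cells, and of S over low-cycle and G2/M over S within progenitors, kept their sign, and contrasts between other classes or of other states were not run, apart from the Hist3 levels given above. No paired analysis was possible because each genotype has 1 library. Log2 ratios of mutant over control for the summed members were 0.03 in granule cell progenitors, -0.08 in granule neurons, 0.08 in Purkinje cells, 0.05 in astroglia, -0.07 in GABAergic interneurons and 0.02 in GABAergic or glial progenitors. TMM and DESeq2 scaling gave -0.031 and -0.028 in granule cell progenitors. Without doublet removal the values were 0.0028 in granule cell progenitors, -0.13 in granule neurons and 0.011 in Purkinje cells. With removal at double the rate they were 0.054 in granule cell progenitors, -0.13 in granule neurons, -0.064 in astroglia and 0.079 in GABAergic or glial progenitors. In female cells they were -0.062 in granule cell progenitors, -0.14 in granule neurons, -0.0016 in Purkinje cells, -0.18 in astroglia and -0.11 in GABAergic or glial progenitors, and in male cells 0.16 in granule cell progenitors, 0.16 in Purkinje cells, 0.20 in astroglia and 0.13 in GABAergic or glial progenitors. Without the Hist3 genes they were 0.14 in granule neurons, 0.23 in Purkinje cells and 0.044 in GABAergic interneurons. Without the most abundant member they were -0.028 in granule cell progenitors and 0.11 in astroglia. At Leiden resolution 0.5 the value was 0.23 in astroglia, a class that then held other cells, among them a cluster of median depth 1438 UMIs. With at least 1000 genes and at most 5% mitochondrial UMIs it was -0.0098 in Purkinje cells. That rebuilt class of 158 and 198 cells held only 41 and 96 of the reported ones.

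For state in progenitors, the log2 ratio of S over low-cycle, 1.98 in mutant and 2.09 in control, was 0.84 and 0.65 with state from upper tertiles and 1.56 and 1.66 without the most abundant member. G2/M over S, 0.84 and 0.94, was 0.17 and 0.34 with tertiles and 0.91 and 0.99 without that member, 0.88 at Leiden resolution 0.5 in mutant, and in control 0.85 with thinned cells and 0.90 under the stricter cell filter. For progenitors over neurons, the Hist3 value was -2.17 against granule neurons and -1.04 against Purkinje cells under the stricter filter with classes rebuilt, and -2.18 against Purkinje cells without doublet removal, where the other members had 3.14 against granule neurons and 3.897 against Purkinje cells.

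Counts of called members depend on the limits. With at least 20 UMIs, 5 were lower in granule cell progenitors, 4 higher and 4 lower in granule neurons, 1 lower in Purkinje cells, 5 higher and 5 lower in astroglia, 3 higher and 4 lower in GABAergic interneurons and 7 higher in GABAergic or glial progenitors. At 2-fold, 0 were lower in granule cell progenitors, 1 higher in granule neurons, 1 higher in Purkinje cells, 0 higher and 1 lower in astroglia, and 1 higher and 0 lower in GABAergic or glial progenitors, where TMM scaling also left 1 higher. The causes of these movements were not tested. Depth limits single members outside the progenitors, where most have under 50 UMIs, and the 23 and 27 low-cycle progenitors limit every ratio against that state.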
